A study of Homo sapiens with 6 samples.

Results

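Mitochondrial ribosomal proteins build the ribosome that works inside mitochondria, and their genes were examined in MDA-MB-231 cells with reduced CALR. The members were every row of the deposited count table typed as protein-coding whose symbol is MRPL or MRPS followed by a number and at most one letter from A to C. This gave 78 rows of 31582, with 77 different symbols, because MRPS17 is listed in 2 rows. All 78 passed the filter on low counts that left 16394 genes for testing, so none was lost to it. MDA-MB-231 is an established human line of mesenchymal, hormone receptor-negative breast cancer. The labels give 3 libraries of cells carrying an shRNA against CALR, the gene of the endoplasmic reticulum chaperone calreticulin, and 3 of control cells, which the growth protocol calls MDA-MB-231-NTC. Both groups were grown in DMEM with serum and neither had a further treatment. The labels do not say whether a group's libraries are separate cultures, clones or infections, so the p-values measure only the spread between these libraries.

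The mitochondrial ribosome has a large and a small subunit. Its RNAs come from mitochondrial DNA, whereas every one of its proteins is encoded in the nucleus, made in the cytosol and imported. It translates the mRNAs of mitochondrial DNA, which encode core subunits of the respiratory chain and the ATP synthase. Some of its proteins have bacterial homologues and others exist only in mitochondria, and the symbol does not always tell the subunit: MRPS18A and MRPS30 sit in the large subunit of the human particle, and MRPS36 has since been assigned to a metabolic enzyme complex. The 78 rows were classed as 30 large-subunit rows with a bacterial homologue and 20 specific to mitochondria. A further 17 were classed as small-subunit rows with a bacterial homologue, both MRPS17 rows among them. The last 11 were classed as small-subunit rows specific to mitochondria, where MRPS36 was kept by its symbol. The genes lay on 21 chromosomes.

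Library totals were 34639090 to 42425310 counts, and the lowest count of any member in any library was 273. CALR itself stood at 47.5%, 6.39% and 10.6% of the control mean in knockdown replicates 1 to 3. Its log2 fold change was −2.22 ± 0.64 (adjusted p = 0.209 in edgeR), so even the targeted gene did not pass an adjusted p of 0.05 in this fit. In edgeR without the low-count filter CALR was at −2.19 with an adjusted p of 1.4e-19. Vimentin, a mesenchymal marker, lay between 2424 and 2982 CPM (read counts scaled to a fixed library size) in knockdown and between 1818 and 1934 CPM in control libraries. The vimentin gene VIM thus had groups that did not overlap (log2 fold change 0.65 ± 0.16, adjusted p = 0.187 in edgeR), and its part in the differences of the members was not tested. ESR1, the oestrogen receptor gene, lay between 0.322 and 0.626 CPM. PGR, the progesterone receptor gene, lay between 0.542 and 2.03 CPM, and CDH1, an epithelial marker, between 0.0471 and 1.07 CPM. These marker levels, that of vimentin included, are over library totals. Summed blood markers came to 4.32 to 5.82 CPM in knockdown and 5.77 to 6.21 CPM in control libraries, and 3 of 12 had no reads or no row. Summed fibroblast and endothelial markers came to 15.2 to 18.5 and 13.2 to 22.1 CPM. Of the 6 of these that were tested, 1 had all knockdown libraries above the controls, PECAM1 (log2 fold change 1.19 ± 0.44, adjusted p = 0.264 in edgeR). In 1 they lay below, DCN (−2.23 ± 0.86, adjusted p = 0.276 in edgeR). In RNA of a whole culture, a shift in every cell and a shift in some of the cells cannot be told apart.

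The promoters of 4 members whose groups did not overlap are shown first, 2 lower and 2 higher in knockdown than in control libraries. MRPS10 and MRPL42 had the 2 lowest log2 fold changes of the members, and MRPS6 and MRPL27 were among the highest. Each window runs from 250 bases before to 50 bases after the start site, from RefSeq on GRCh38.p14, 5′ to 3′ on the gene's strand. The windows are chr6:42217812-42218111 (minus strand) for MRPS10, chr12:93467264-93467563 (plus) for MRPL42, chr17:50373135-50373434 (minus) for MRPL27 and chr21:34073328-34073627 (plus) for MRPS6. Capitals mark the ETS-family core CCGGAAG, which GABP binds, and AAGATGGCG, a motif of the factor YY1, searched on both strands.
MRPS10: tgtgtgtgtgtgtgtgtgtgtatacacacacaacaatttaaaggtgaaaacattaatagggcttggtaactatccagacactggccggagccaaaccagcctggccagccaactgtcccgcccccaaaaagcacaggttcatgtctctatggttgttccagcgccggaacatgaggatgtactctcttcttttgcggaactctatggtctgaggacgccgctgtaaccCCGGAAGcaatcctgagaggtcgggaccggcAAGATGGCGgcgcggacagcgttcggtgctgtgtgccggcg
MRPL42: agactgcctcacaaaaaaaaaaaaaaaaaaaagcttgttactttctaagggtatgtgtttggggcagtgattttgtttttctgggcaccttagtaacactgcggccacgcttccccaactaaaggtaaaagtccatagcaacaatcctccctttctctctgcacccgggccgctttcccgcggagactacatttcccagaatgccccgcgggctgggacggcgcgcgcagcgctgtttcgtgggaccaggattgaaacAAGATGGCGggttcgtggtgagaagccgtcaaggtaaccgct
MRPL27: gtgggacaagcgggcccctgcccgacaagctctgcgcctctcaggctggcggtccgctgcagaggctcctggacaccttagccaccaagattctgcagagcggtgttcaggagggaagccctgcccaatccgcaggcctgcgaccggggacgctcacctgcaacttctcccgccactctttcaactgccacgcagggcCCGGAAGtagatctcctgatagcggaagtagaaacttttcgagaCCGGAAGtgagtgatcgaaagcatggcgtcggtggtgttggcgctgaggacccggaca
MRPS6: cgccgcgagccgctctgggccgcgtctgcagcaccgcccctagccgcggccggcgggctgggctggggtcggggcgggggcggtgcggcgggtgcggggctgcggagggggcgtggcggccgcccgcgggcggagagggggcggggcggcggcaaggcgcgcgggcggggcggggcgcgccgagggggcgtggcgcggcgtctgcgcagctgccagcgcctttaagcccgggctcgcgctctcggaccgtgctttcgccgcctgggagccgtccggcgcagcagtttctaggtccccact

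MRPS10 had the ETS core beginning at base −22 and the YY1 letters at base 10, counted from the start site. MRPL42 had the YY1 letters at base 9, MRPL27 the ETS core at bases −52 and −8, and MRPS6 had neither string. None of these matches overlapped a match of the other motif. Of the 77 symbols, 68 had at least 1 window in the promoter table, and these held 84 windows, some of which overlap within a gene. The ETS core was in 32 of the 84 (38.1%), against 10.3% of all 35116 windows and 16.4% of the 15512 windows of protein-coding genes tested here. The YY1 letters were in 13 (15.5%), against 1.75% and 3.29%. For the NRF1 string GCGCATGCG the counts were 3 windows (3.57%) against 1.92% and 2.97%, and for the E-box CACGTG 9 windows (10.7%) against 7.26% and 9.15%. CCAAT was in 28 (33.3%), close to the 34.6% of both backgrounds. The 13 members with the YY1 letters had a median log2 fold change of 0.09 and ran from −0.88 (MRPS10) to 0.57 (MRPL52), whereas the 54 without them had a median of 0.22. The 29 members with the ETS core had a median of 0.22 and the 38 without it 0.19. A match describes letters only, and binding was not measured.

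Most mitochondrial ribosomal protein genes lay slightly above the controls in CALR knockdown, and a pair of them, MRPS10 and MRPL42, lay well below. The fitted log2 fold change was positive for 55 of the 78 and negative for 23, with a median of 0.18 and quartiles of −0.02 and 0.37. Over all genes tested 49.9% were positive and the median was near 0, at −0.0007. After adjustment of edgeR's quasi-likelihood p over all genes, 0 members passed 0.05, beside 0% of all genes tested, and the smallest adjusted value of a member was 0.145. Before adjustment, 16 members had a p below 0.05 and were higher in knockdown, and 2 had such a p and were lower. These counts are 20.5% and 2.56% of the members, beside 8.17% and 7.36% of all genes. Among protein-coding genes tested the shares were 9.27% and 7.37%. The median SE of the log2 fold change was 0.18 for the members and 0.25 for all genes. A difference of a given size therefore reached a low p more easily in the members, here and in the classes below. Under limma-voom the counts were again 0 adjusted, beside 0% of all genes, 16 higher (20.5%, beside 7.39%) and 2 lower. The share of all genes lower in the limma-voom fit is not given here. DESeq2 called 3 of the 78 members (MRPS10, MRPL42 and MRPL27), where it called 3.23% of all genes. Without the low-count filter edgeR called 2 of the 78 (MRPS10 and MRPL42), beside 3.13% of all genes. In both of these fits the members' share was close to that of all genes. In 17 members all 3 knockdown libraries lay above all 3 controls, 21.8% beside 11.3% of all genes, and in 3 they lay below, 3.85% beside 11.2%. Among protein-coding genes tested these shares were 12.3% above and 10.9% below.

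**Figure D1:**
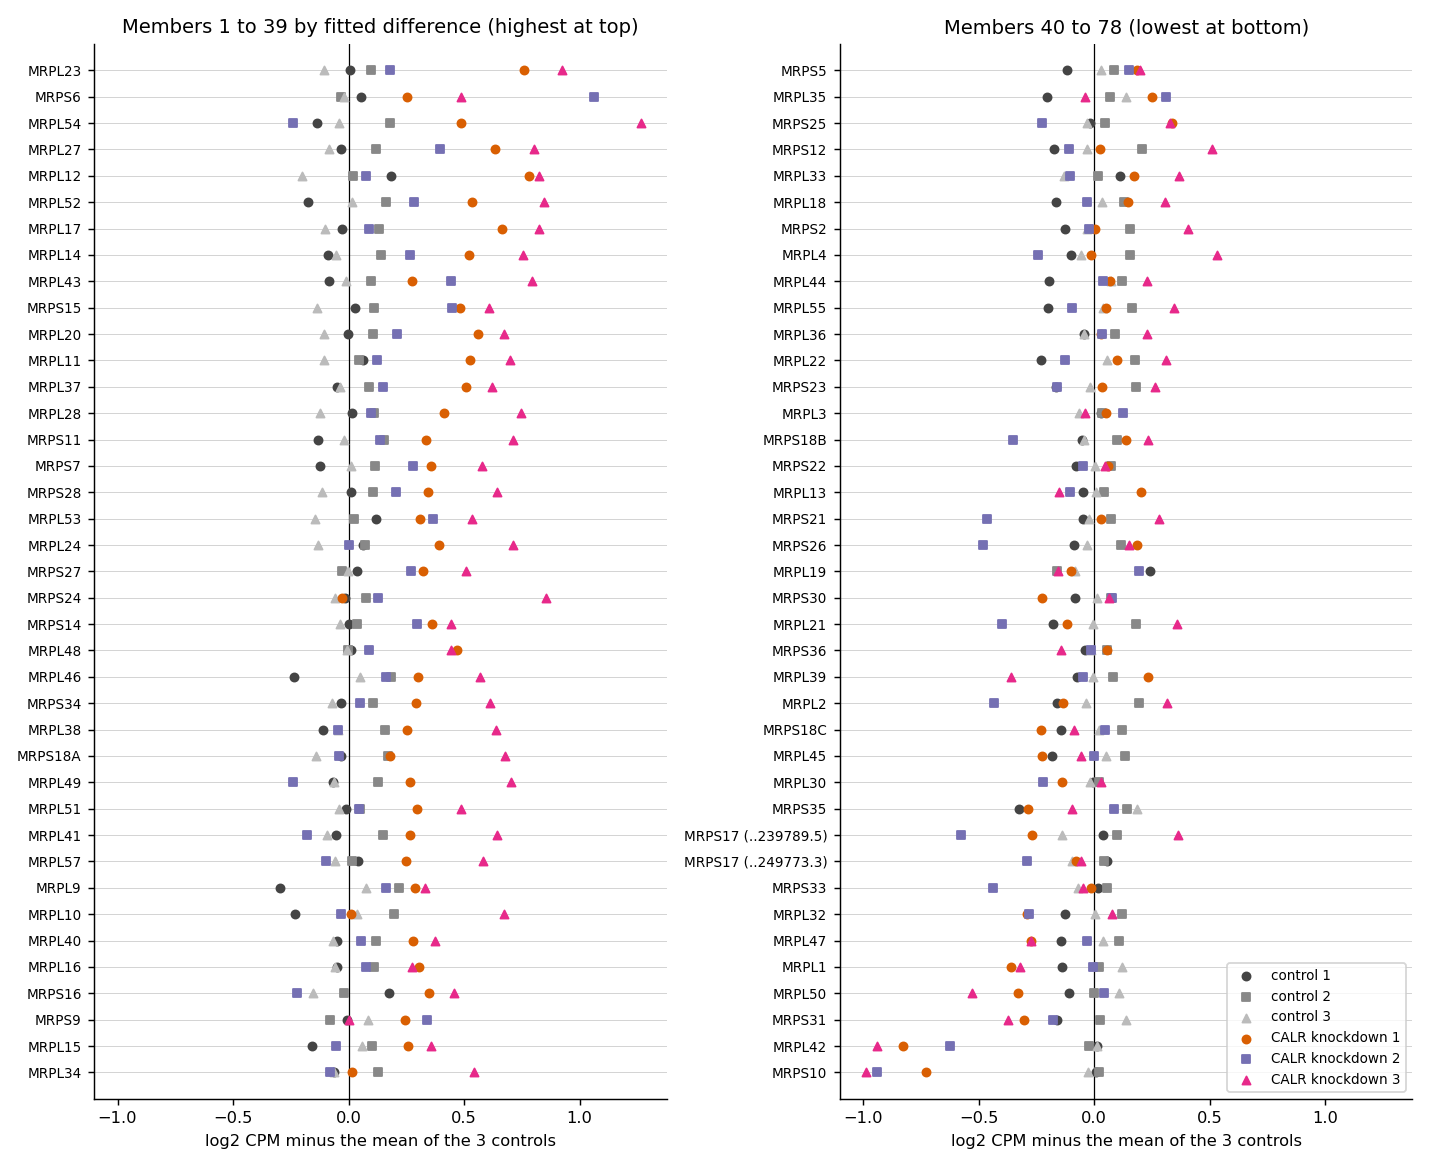
Log2 CPM of each of the 78 members minus the mean of the 3 controls (x axis), 1 row per member in order of the fitted log2 fold change, with a point for each library. Knockdown replicate 3 (pink triangles) is the highest of the 6 libraries in 52 members, and MRPS10 and MRPL42 at the bottom are the only rows where all knockdown points lie beyond −0.5.

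MRPS10, a homologue of the bacterial protein S10 in the head of the small subunit, was the member furthest below the controls. It is gene ENSG00000048544.5, chromosome 6, 42206801 to 42217865 of GRCh38, minus strand. Its levels, given here and below in the order of replicates 1 to 3, were 106, 91.8 and 88.7 CPM with the knockdown and 177, 179 and 172 CPM without it. The groups did not overlap, and the lowest control was well above the highest knockdown library. The means were 95.6 ± 9.36 and 176 ± 3.19 CPM (SD, n = 3), so that knockdown libraries held 54.3% of the control level. The log2 fold change was −0.88 ± 0.15 (SE). In edgeR the p-value was 0.000242 before and 0.145 after adjustment. By unadjusted p it ranked 17 among all 16394 genes and 6 among those lower in knockdown. With any 1 library left out the log2 fold change stayed between −0.96 and −0.81. No exon base of MRPS10 is shared with another annotated gene on either strand.

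MRPL42, a large-subunit protein specific to mitochondria, followed the same pattern. It is gene ENSG00000198015.12, chromosome 12, 93467488 to 93516213, plus strand. It was at 48.2, 55.6 and 44.7 CPM in the knockdown libraries and at 86.4, 84.2 and 86.3 CPM in the controls. Again the groups were apart, and the controls differed from each other by less than the knockdown libraries did. The means were 49.5 ± 5.57 and 85.7 ± 1.23 CPM (SD, n = 3), 57.8% of the control level, with a log2 fold change of −0.79 ± 0.16 (SE). In edgeR the p-value was 0.000702 before and 0.149 after adjustment. In the fit corrected for GC content (library by library), MRPL42 was at −0.51 and MRPS10 at −0.71, with adjusted p of 0.135 and 0.095 in edgeR. Their adjusted p in the DESeq2 fit were 0.0031 for MRPL42 and 0.0003 for MRPS10. Over all alternatives the adjusted p ran from 0.0003 to 0.536 for MRPS10 and from 0.0031 to 0.536 for MRPL42.

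The third member whose groups did not overlap downwards was MRPS31, at 23.5, 25.7 and 22.4 CPM against 25.9, 29.6 and 31.9 CPM. Its difference was small (log2 fold change −0.29 ± 0.17, adjusted p = 0.436 in edgeR), and the nearest libraries, at 25.7 and 25.9 CPM, nearly touched. With the GC correction it was at −0.05. Knockdown libraries were at 81.9% of the control mean.

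**Figure D2:**
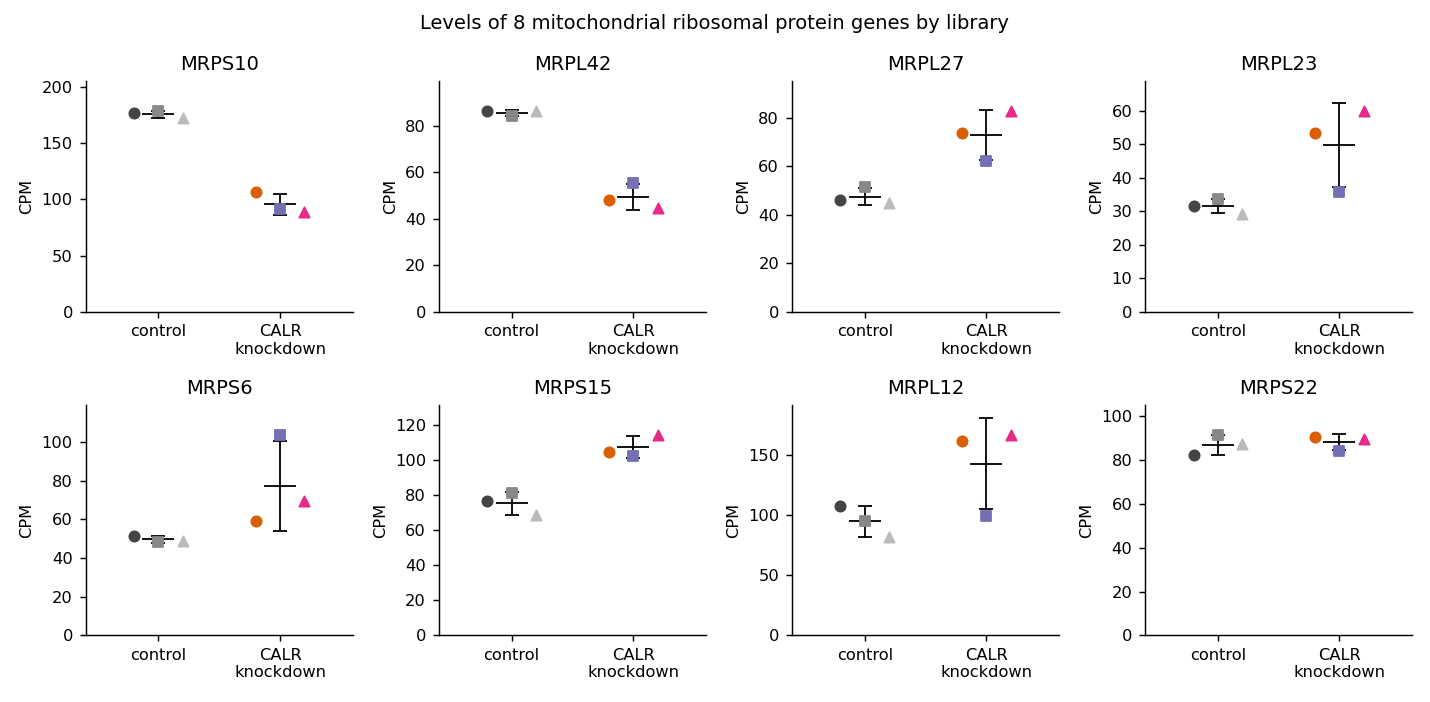
CPM (y axis, from 0) of 8 members in each control and CALR knockdown library, with the mean and SD of 3 libraries; circles, squares and triangles are replicates 1, 2 and 3. MRPS10 and MRPL42 separate the groups downwards, MRPL27, MRPL23, MRPS6 and MRPS15 upwards, and MRPL12 and MRPS22 overlap.

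Among the large-subunit proteins with a bacterial homologue, 22 of 30 lay above 0 in log2 fold change and the median was 0.16. Of these, 7 had an unadjusted p below 0.05, all higher in knockdown (23.3%, beside 8.17% of all genes). MRPL27, whose bacterial homologue reaches towards the site of peptide bond formation, was at 73.6, 62.4 and 82.7 CPM in knockdown and 46.2, 51.4 and 44.7 CPM in control libraries. All 3 knockdown libraries lay above the controls, with means of 72.9 ± 10.2 and 47.5 ± 3.55 CPM and a log2 fold change of 0.62 ± 0.17. MRPL27 lies on chromosome 17 at 50367857 to 50373214 and shares no exon base with another gene. Its adjusted p was 0.200 in edgeR's test. MRPL23, a homologue of a protein at the rim of the exit tunnel, had the highest log2 fold change of all members, 0.65 ± 0.22. Its levels were 53.5, 35.7 and 60.0 CPM against 31.7, 33.8 and 29.3 CPM. The groups were apart, but knockdown replicate 2 was only just above the highest control.

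The proteins of the ribosomal stalk, which brings translation factors to the particle, gave uneven values. MRPL12, the stalk protein itself, was at 162, 99.2 and 167 CPM in knockdown and 107, 95.3 and 81.8 CPM in control libraries. Knockdown replicate 2 lay within the range of the controls, and replicates 1 and 3 above it. The log2 fold change was 0.59 ± 0.22, and edgeR's p-value was 0.0273 before and 0.272 after adjustment. MRPL12 shares 68.2% of its exon bases with another annotated transcript on the same strand, so its count is uncertain. MRPL11, at the base of the stalk, was at 131, 99.4 and 148 CPM against 95.4, 94.1 and 84.7 CPM, with all knockdown libraries above the controls (0.47 ± 0.18). MRPL10, which anchors MRPL12, was at 64.2, 62.3 and 102 CPM against 54.2, 73.0 and 65.4 CPM. Only knockdown replicate 3 exceeded the controls there, and without it the log2 fold change of 0.24 ± 0.23 turned to −0.0061.

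The other large-subunit members with a bacterial homologue and an unadjusted p below 0.05 were MRPL14, MRPL17 and MRPL20. MRPL14, from the face that meets the small subunit, was at 143, 120 and 169 CPM against 93.9, 110 and 96.2 CPM. MRPL17 was at 174 ± 43.4 against 119 ± 10.0 CPM, and in knockdown replicate 2, at 126 CPM, it lay among the controls. MRPL20 was at 61.7 ± 9.82 against 43.9 ± 3.24 CPM, and another gene on the same strand covers 10.5% of its exon bases. MRPL14 and MRPL20 had groups that did not overlap. MRPL3, at 140 ± 7.97 against 136 ± 5.16 CPM, MRPL18, at 93.1 ± 10.9 against 84.3 ± 8.67 CPM, and MRPL19, at 34.1 ± 4.61 against 34.7 ± 5.29 CPM, had overlapping groups.

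Of the 20 large-subunit proteins specific to mitochondria, 15 were positive, with a median log2 fold change of 0.29. An unadjusted p below 0.05 was found for 4 that were higher (20%, beside 8.17% of all genes) and for MRPL42, which was lower (5%, beside 7.36%). MRPL52 was at 105, 88.5 and 131 CPM in knockdown and 64.4, 81.3 and 73.3 CPM in control libraries, with groups apart and a log2 fold change of 0.57 ± 0.19. MRPL43 was at 91.2 ± 17.2 against 63.6 ± 4.01 CPM, but 36.9% of its exon bases lie opposite genes on the other strand, among them TWNK. MRPL37 was at 164 ± 26.8 against 121 ± 6.54 CPM. MRPL53 was at 37.3 ± 3.08 against 28.2 ± 2.58 CPM and shares 45.2% of its exon bases with CCDC142 on the same strand. MRPL41 was at 98.3, 72.0 and 127 CPM against 78.5, 90.5 and 76.4 CPM, with the groups overlapping. Its log2 fold change of 0.28 was 0.07 without knockdown replicate 3.

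Of the 17 small-subunit rows with a bacterial homologue, 12 were positive, with a median of 0.20, and at an unadjusted p below 0.05, 4 were higher (23.5%, beside 8.17%) and MRPS10 was lower (5.88%, beside 7.36%). MRPS15, a protein of the platform, was higher in each knockdown library than in any control. It was at 105, 103 and 114 CPM in knockdown and 76.5, 81.0 and 68.4 CPM in control libraries, and no other gene shares its exon bases. The means were 107 ± 6.30 and 75.3 ± 6.36 CPM and the log2 fold change 0.51 ± 0.15 (unadjusted p = 0.00821, adjusted p = 0.211 in edgeR). MRPS6, on chromosome 21 at 34073224 to 34143034, was at 59.1, 104 and 69.4 CPM against 51.4, 48.5 and 48.9 CPM. All knockdown libraries were above the controls, and replicate 2 stood apart from the other two. Without that library the log2 fold change of 0.64 ± 0.22 was 0.38, and SLC5A3, which overlaps MRPS6 on the same strand, is among the genes that share 9.61% of its exon bases.

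MRPS7 and MRPS14, both of the small-subunit head, were at 135 ± 14.6 against 101 ± 8.37 CPM and at 47.5 ± 2.44 against 36.8 ± 0.933 CPM. Both had groups that did not overlap. MRPS12, at the site where codons are read, was at 59.7, 54.4 and 83.5 CPM against 51.9, 67.7 and 57.3 CPM. MRPS16, which is mutated in an inherited mitochondrial disease, was at 145, 97.6 and 156 CPM against 128, 112 and 102 CPM. In both, knockdown replicate 2 was the lowest of its group and replicate 3 the highest of the 6 libraries. The log2 fold changes, 0.16 ± 0.21 and 0.22 ± 0.20, were close to their errors. MRPS16 was at 0.40 without knockdown replicate 2 and at 0.10 without replicate 3. The MRPS17 row ENSG00000239789.5 was at 8.40, 6.78 and 13.0 CPM against 10.4, 10.9 and 9.19 CPM, with overlapping groups. The other MRPS17 row carries the name AC092647.5 in GENCODE 29 and shares 88.6% of its exon bases with MRPS17 and ZNF713, so reads of these genes cannot be assigned with certainty.

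The 11 small-subunit rows specific to mitochondria, MRPS36 among them, lay nearest to the controls by their median, with 6 positive and a median log2 fold change of 0.02. MRPS27, a protein with RNA-binding repeats, was the 1 member at an unadjusted p below 0.05 (9.09% of the class, beside 8.17% of all genes higher). It was at 114, 111 and 130 CPM in knockdown and 93.7, 89.6 and 91.2 CPM in control libraries, with groups apart and a log2 fold change of 0.37 ± 0.15. MRPS22, another gene of inherited mitochondrial disease, was at 90.7, 84.1 and 89.8 CPM against 82.3, 91.6 and 87.2 CPM. Its groups overlapped fully and its log2 fold change was 0.02 ± 0.14. Differences between the 4 classes were not tested, and these medians describe the members only.

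**Figure D3:**
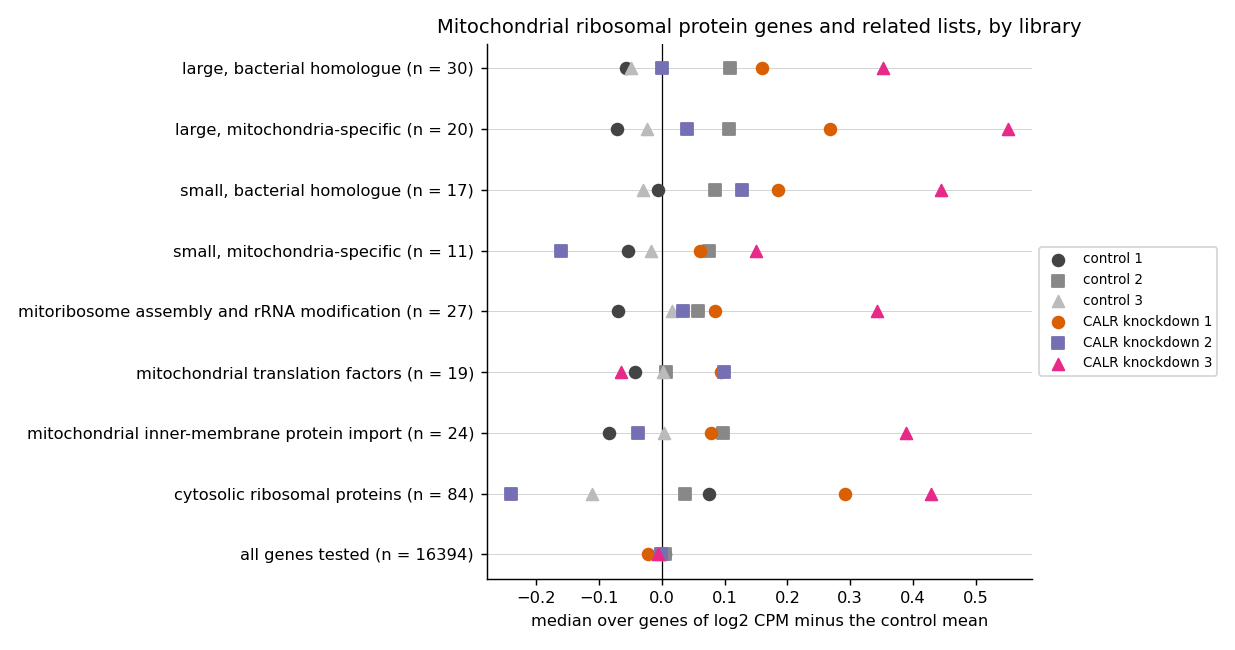
Median over genes of log2 CPM minus the control mean (x axis) for each library, for the 4 classes of mitochondrial ribosomal proteins, related lists and all genes tested, with the number of genes in each. Knockdown replicate 3 is furthest right in all 4 classes and knockdown replicate 2 lies within or below the range of the controls in 3 of them, while the medians over all genes lie near 0.

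The 3 knockdown libraries did not carry the upward difference equally. The median of the members against the control mean was 0.19 in replicate 1, 0.002 in replicate 2 and 0.37 in replicate 3, while control replicates 1 to 3 had −0.05, 0.10 and −0.03. Summed over the members, the levels were 6415, 5695 and 7369 CPM in knockdown and 5462, 6070 and 5591 CPM in control libraries. Replicate 2 thus lay within the control range. Among the knockdown libraries, replicate 3 was the highest in 54 members and replicate 2 the lowest in 55. Replicate 2 also had the least CALR left, and whether the amount of CALR bears on these genes was not tested.

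Leaving out knockdown replicate 2 raised the median to 0.29 and the count higher at an unadjusted p below 0.05 to 33 (42.3%, beside 17.9% of all genes in that fit). In the same fit 16 of the 78 members passed the adjusted threshold in edgeR, beside 15.5% of all genes in either direction. Of these members 14 were higher, and the share of all genes for that direction alone is not given here. Without knockdown replicate 3 the median was 0.08 and 8 members (10.3%) were higher, beside 7.83% of all genes, and without knockdown replicate 1 there were 10 (12.8%), beside 5.33%. Without a control library, 5 (replicate 1), 8 (replicate 2) and 1 (replicate 3) were higher, beside 6.35%, 3.86% and 2.87% of all genes. The members' share was near the background without control replicate 1 (6.41%) and below it without control replicate 3 (1.28%). MRPS10 and MRPL42 kept an unadjusted p below 0.05 with any 1 library left out.

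GC content moved with these differences. Over the 78 members, Spearman's rho between the GC content of the longest transcript and the log2 fold change was 0.45, beside 0.31 over all tested genes with a value. Genes are not independent replicates, and all points share the same 6 libraries. By library, rho was 0.37, −0.06 and 0.61 with the knockdown and 0.02, 0.43 and −0.47 in the controls. Members below 45% GC, 30 in number, had a median log2 fold change of −0.02 with 14 positive, where tested genes of that GC content had −0.18. The 48 at or above 45% GC had a median of 0.26 with 41 positive, where tested genes had 0.12. With the GC correction 63 members were positive and the median was 0.20. At an unadjusted p below 0.05 there were then 20 higher (25.6%, beside 9.61% of all genes) and 2 lower. The share of all genes lower in that fit is not given here.

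**Figure D4:**
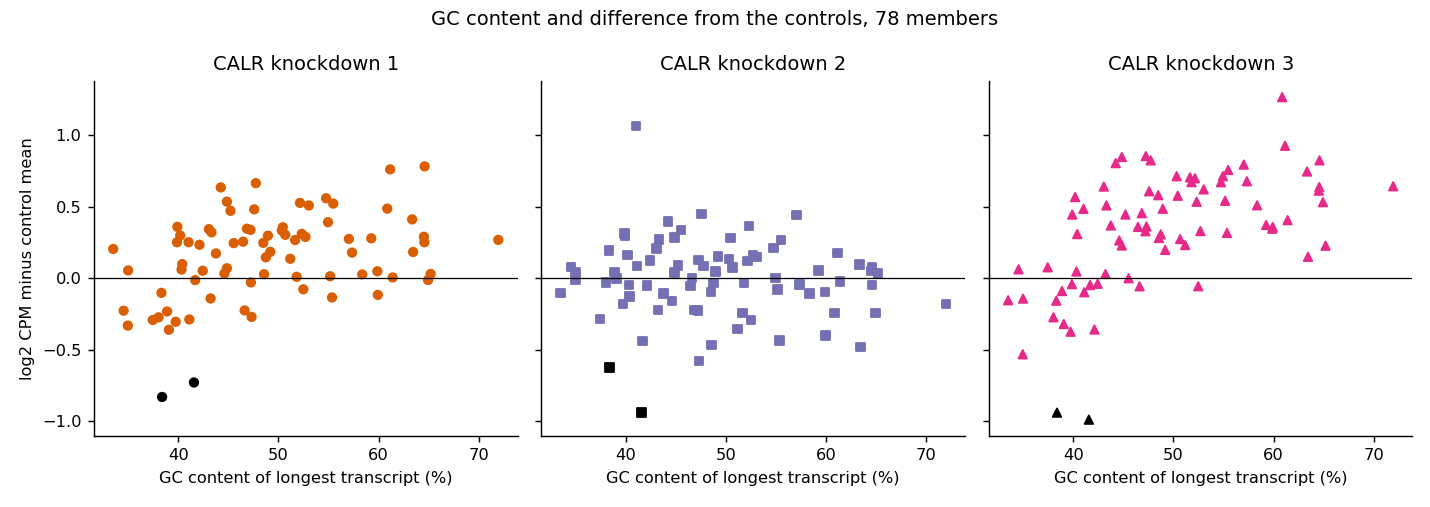
GC content of each member's longest transcript (x axis, %) and log2 CPM minus the control mean (y axis) in the 3 knockdown libraries, 78 points in each, with MRPS10 and MRPL42 in black. The points climb with GC content in replicates 1 and 3 and not in replicate 2.

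Per length of gene, the deposited FPKM values (fragments per kilobase of gene, scaled to sequencing depth) ran from 4.01 for MRPL42 to 174 for MRPS24 as means over 6 libraries, with a median of 38.4 over the members. By FPKM, MRPS24, MRPL33 (147 FPKM) and MRPL14 (118 FPKM) were the most abundant, and MRPL42, the MRPS17 row ENSG00000239789.5 (4.94 FPKM) and MRPL19 (8.37 FPKM) the least. These ranks depend on the length used. For MRPS24 and MRPL33, counts and FPKM imply 842 and 554 bases, against 2613 and 1539 annotated exon bases. By CPM, MRPL51 was the highest, with means of 190 in knockdown and 156 in control libraries. The level of MRPL42 rests on a long gene model. Its counts and FPKM imply a length of 17127 bases, and its annotated exons cover 16393 bases. MRPS24 was at 127, 141 and 233 CPM in knockdown and 128, 136 and 124 CPM in control libraries. Its log2 fold change of 0.37 came from knockdown replicate 3 and was 0.07 without it, and 23.2% of its exon bases are shared with the transcript URGCP-MRPS24. MRPL33 was at 87.3, 71.9 and 99.9 CPM against 83.6, 78.4 and 70.8 CPM, with the groups overlapping.

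The rest of the mitochondrial translation pathway gave mixed values, and its counts at an unadjusted p below 0.05 stand beside 8.17% of all genes higher and 7.36% lower. Mitoribosomal proteins under other symbols, namely DAP3, AURKAIP1, CHCHD1, PTCD3, GADD45GIP1 and ICT1, were all positive, with a median of 0.27, and 0 of 6 had an unadjusted p below 0.05. AURKAIP1 was at 0.39 ± 0.20, GADD45GIP1 at 0.35 ± 0.21, ICT1 (the older symbol of MRPL58, a release factor built into the large subunit) at 0.29 ± 0.21 and DAP3 at 0.24 ± 0.16. Without knockdown replicate 3, AURKAIP1 was at 0.21 and GADD45GIP1 at 0.15, and with library totals alone DAP3 was at 0.10. Without knockdown replicate 2, AURKAIP1 was at 0.55 with an adjusted p of 0.0447 in edgeR. Of 27 assembly and rRNA-modifying factors, 20 were positive with a median of 0.10, and 3 had an unadjusted p below 0.05, 1 higher (3.70%) and 2 lower (7.41%), below and close to these shares of all genes. They were the pseudouridine synthase RPUSD4 (0.51 ± 0.21), the methyltransferase TRMT61B (−0.81 ± 0.23) and the GTPase GTPBP10 (−0.44 ± 0.19). RPUSD4 was at 0.33 without knockdown replicate 3, and GTPBP10 at −0.07 with the GC correction. Without knockdown replicate 2, RPUSD4, TRMT61B and GTPBP10 each had an adjusted p of 0.038 in edgeR, where 15.5% of all genes passed 0.05. TRMT61B also had 0.038 in DESeq2, where 3.23% passed. Of 19 translation factors and partners, 9 were positive with a median of −0.02, and 1 was higher (5.26%) and 2 lower (10.5%). OXA1L, which inserts newly made proteins into the inner membrane, was at 215, 186 and 214 CPM against 129, 139 and 135 CPM, with groups well apart (0.61 ± 0.15, adjusted p = 0.172 in edgeR). Its adjusted p was 0.013 in DESeq2, and 0.018 in edgeR without knockdown replicate 2. C6orf203 was at −0.50 ± 0.19 and the release factor MTRF1 at −0.52 ± 0.22 (−0.24 with the GC correction).

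Of 15 genes of mitochondrial DNA maintenance and transcription, 5 were positive with a median of −0.15, and 3 had an unadjusted p below 0.05, 2 higher (13.3%) and 1 lower (6.67%). TFAM, which packages mitochondrial DNA and starts its transcription, was at 40.9, 66.4 and 32.1 CPM in knockdown and 91.6, 77.8 and 88.2 CPM in control libraries. The groups were apart, and the log2 fold change was −0.89 ± 0.26 (adjusted p = 0.209 in edgeR). In edgeR the adjusted p of TFAM was 0.0049 without the low-count filter and 0.015 without knockdown replicate 2. In those fits 3.13% and 15.5% of all genes passed 0.05. The polymerase POLG was at 0.49 ± 0.17 and FASTK, which acts on mitochondrial RNA, at 0.51 ± 0.20 (0.32 without knockdown replicate 3). Without knockdown replicate 2 their adjusted p in edgeR were 0.030 and 0.040. Of 12 regulators of nuclear genes for mitochondria, 4 were positive, and MYC (−0.78 ± 0.22) was the only one at an unadjusted p below 0.05 (8.33% of the list). The adjusted p of MYC was 0.200 in edgeR and 0.044 in DESeq2. In edgeR it was 0.015 without the low-count filter and 0.043 without knockdown replicate 2. GABPA, the ETS-family subunit of GABP, was at −0.56 ± 0.33 and PPARGC1B at −0.44 ± 0.26. Without knockdown replicate 1 GABPA was at −0.33, and without replicate 2 at −1.03 with an adjusted p of 0.0219 in edgeR. With the GC correction it was at −0.30. PPARGC1B was at −0.26 without knockdown replicate 3. Of 24 import genes, 18 were positive with a median of 0.17, and 6 had an unadjusted p below 0.05, 5 higher (20.8%) and 1 lower (4.17%), among them TIMM10 (0.59 ± 0.19), TIMM8B (0.57 ± 0.21) and the channel TOMM40 (0.47 ± 0.17, 0.31 with the GC correction). Without knockdown replicate 2 the adjusted p of TIMM10, TIMM8B and TOMM40 in edgeR were 0.025, 0.020 and 0.033.

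The RNAs of mitochondrial DNA gave no common direction. The 13 mitochondrially encoded mRNAs had a median log2 fold change of −0.04, with 6 positive. At an unadjusted p below 0.05 there were 0 of them, beside 8.17% of all genes higher and 7.36% lower. MT-ND3, a complex I subunit, was at 0.43 ± 0.22, MT-ND4L at −0.21 ± 0.18 and MT-ND6, whose values spread widely in both groups, at −0.86 ± 0.57. Without knockdown replicate 3 MT-ND3 was at 0.17 and MT-ND4L at −0.09, and MT-ND4L was at −0.06 without control replicate 1. MT-ND6 ran from −1.69 without knockdown replicate 2 to −0.28 without control replicate 1, and was at −0.48 without knockdown replicate 3. Without the low-count filter the adjusted p in edgeR was 0.0039 for MT-ND6 and 0.0015 for the large-subunit rRNA MT-RNR2, where 3.13% of all genes passed 0.05. The small-subunit rRNA MT-RNR1 was at −0.07 ± 0.27. The large-subunit rRNA MT-RNR2 was at 4913, 3877 and 11419 CPM against 12035, 13124 and 14253 CPM (−0.96 ± 0.37), with knockdown replicate 3 near the controls. Without that library it was at −1.56 with an adjusted p of 0.026 in edgeR. Libraries were made from polyadenylated RNA, and whether the amount of rRNA carried along bears on these rRNA levels was not tested. Cytosolic ribosomal proteins, 84 genes, had a median of 0.16 with 72 positive. At an unadjusted p below 0.05, 0% of them were higher and 1.19% (1 gene) lower, beside 8.17% and 7.36% of all genes. The median of the cytosolic proteins was −0.24 in knockdown replicate 2 and 0.43 in replicate 3, so that these libraries differed there in the same direction as for the mitochondrial proteins. No test of the difference between these lists was made.

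Reads can be shared among near-identical copies. The table lists 13 MRPL or MRPS pseudogenes, 12 of them with at most 10 reads in any library, and MRPS31P5 with 110 to 220. Of the members, 27 share at least 10% of their exon bases with another gene on either strand, and the strand setting of the counting is not given in the sources used here. Among the 51 others, 33 were positive with a median of 0.14, and 12 had an unadjusted p below 0.05. Of these, 10 were higher (19.6%, beside 8.17% of all genes) and 2 lower (3.92%, beside 7.36%).

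The choice of scaling moved the members and all genes together. With library totals alone the median over all genes was −0.13 and that of the members 0.04, a difference of 0.18, the same as in the reported fit. At an unadjusted p below 0.05 there were then 7 members higher (8.97%, beside 4.45% of all genes in that fit) and 2 lower, and 44 were positive. The share of all genes lower in that fit is not given here. Among the members higher in the reported fit, MRPL37 was then at 0.29, MRPL53 at 0.27, MRPS7 at 0.26, and MRPS14 and MRPS27 at 0.23.

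**Figure D5:**
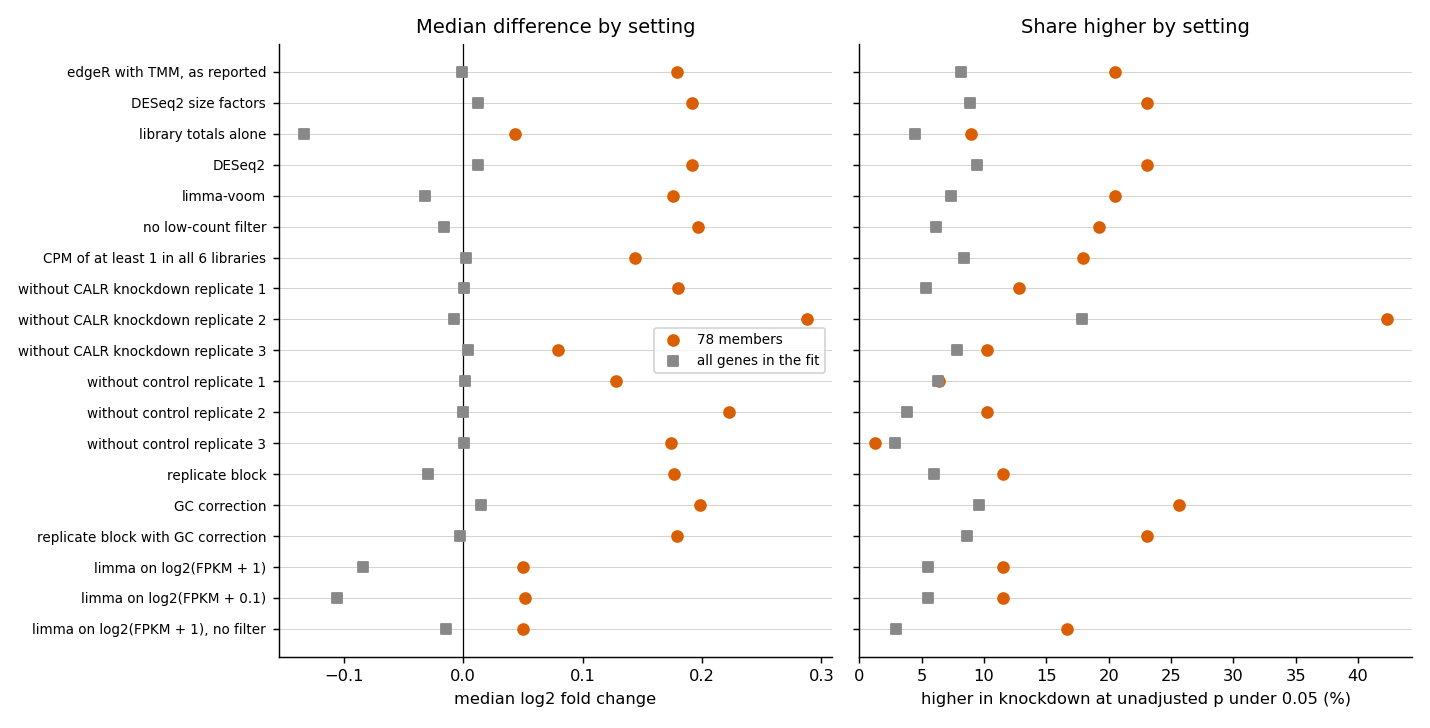
Median log2 fold change (left) and percent of genes higher in knockdown at an unadjusted p below 0.05 (right) for the 78 members (circles) and all genes in the fit (squares) under each setting. The members' median is above that of all genes in every setting shown, and their share higher is below the background without control replicate 3, 1.28% against 2.87%.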

How the data were processed

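RNA was sequenced from MDA-MB-231 cells, 3 CALR knockdown and 3 control libraries. Per the labels' protocols, libraries were polyadenylated and strand-specific (TruSeq) and were run on a NextSeq instrument. GRCh38, TopHat2 and FastQC 0.9.5 are named, per the submitters' processing notes. How reads were counted, with which annotation and strand setting, is not given in the sources used here. The authors deposited whole-number read counts per gene and, in a second table, FPKM values.

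Counts were filtered with edgeR's filterByExpr and scaled by TMM, and groups were compared by the quasi-likelihood test (edgeR 4.0.16 in R 4.3.3), adjusted by Benjamini-Hochberg over all genes tested. SE was derived from the fold change and the F statistic, and CPM uses TMM-scaled library sizes unless stated. Per-library differences use log2 CPM with a prior count of 2. The fit was also run on simulated data with planted changes larger than those of the members and the same scatter for every gene. That run therefore says little about the differences reported here. Alternatives were DESeq2 1.42.0 and its size factors, library totals alone, limma-voom (limma 3.58.1), 2 other count filters, each library left out, the replicate number as a block, a lowess correction for GC content, both together, and limma on log2 FPKM values with pseudocounts of 1 and 0.1. A summary of only the members sharing under 10% of exon bases was chosen after seeing the data.

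The members, gene lists and motifs were chosen with earlier results of these data known. Named members were those at an unadjusted p under 0.05 and the 6 largest non-overlapping differences each way (3 were lower). The 3 most and 3 least abundant by FPKM and 10 with known roles (MRPL58 is listed as ICT1) were also named. From each related list up to 3 genes were named by p, with CALR and MYC. Coordinates are from GENCODE 29 on GRCh38, to which all 78 members matched without the version number.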

Additional observations from a re-analysis of the deposited data

How the results depend on the processing

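At an adjusted p under 0.05 the count of members was 0 in edgeR, 3 with DESeq2, 2 without the low-count filter and 0 to 16 with 1 library left out, the 16 without CALR knockdown replicate 2. The shares of all genes in these fits were 0%, 3.23%, 3.13% and 0% to 15.5%. The 16 members higher at an unadjusted p under 0.05 became 7 with library totals alone, 9 with the replicate block, 9 with either pseudocount in limma on filtered log2 FPKM, 10 among members sharing under 10% of their exon bases, and 1 to 33 with 1 library left out. Of all genes, 4.45% were higher with library totals alone, 5.98% with the replicate block and 5.50% on filtered log2 FPKM. The share of all genes was 2.87% to 17.9% with 1 library left out. The 2 lower became 4 in limma on unfiltered log2(FPKM + 1) and were 2 to 4 with 1 library left out. The shares of all genes lower in these alternatives are not given here. Members with all knockdown libraries above all controls numbered 17 (21.8%, beside 11.3% of all genes), 11 among those sharing under 10% of exon bases, and 18 to 41 with 1 library left out. Those below numbered 3, 6 with library totals alone, 5 with the GC correction, 5 with the replicate block and GC correction together, 5 on each FPKM scale, and 3 to 7 with 1 library left out. With 1 library left out fewer libraries have to lie apart, so groups that do not overlap arise more easily. The matching shares of all genes in those fits are not given here. The median of the members was 0.04 to 0.29 over these alternatives. Fewer samples or members enter the fits that leave some out; otherwise the cause was not tested.

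Of 54 named genes, 8 changed the sign of their log2 fold change under some alternative. With library totals alone MRPL18 was at −0.0030, MRPL3 at −0.080 and MRPS22 at −0.12. On log2(FPKM + 1), filtered or not, MRPL3 was at −0.077 and MRPS22 at −0.10, and with a pseudocount of 0.1 at −0.078 and −0.11. The stricter CPM filter put MRPS22 at −0.016. The GC correction put MRPS12 at −0.0031 and MRPL19 at 0.25, and with the replicate block added at −0.00191 and 0.26. With 1 library left out, MRPL10 ran from −0.0061 to 0.37, MRPS12 from −0.031 to 0.28, MRPL19 from −0.14 to 0.11, MRPS22 from −0.018 to 0.060, the MRPS17 row ENSG00000239789.5 from −0.40 to 0.082 and MT-RNR1 from −0.39 to 0.18. Same-numbered libraries shared only a number: their deviations from the group means correlated at 0.20, −0.12 and −0.22, so they were not taken as pairs.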
